A study of Mus musculus with 15 samples.

Results

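Collagen genes and matrix glycoproteins were followed in mouse adrenal glands before dexamethasone, at the end of its administration and during recovery. The 54 genes were chosen by name from the 21439 genes of the array table. They comprise every gene whose symbol has the collagen form (44 genes) and 10 further matrix genes (Postn, Fn1, Sparc, Tnc, Dcn, Lum, Bgn, Lox, Fbln1 and Eln). The collagens were divided into 11 fibrillar genes (types I, II, III, V, XI, XXIV and XXVII), 8 basement membrane genes (type IV with types XV and XVIII) and 25 other collagens. RNA of whole adrenal glands from wild-type (WT) male C57BL/6J mice was measured on 15 arrays. The control group (4 arrays) was harvested before dexamethasone, a synthetic glucocorticoid. The withdrawal group (3 arrays) was harvested after mice had drunk water with dexamethasone for 14 days, and the day 3 and day 7 groups (4 arrays each) were harvested 3 and 7 days after that treatment ended. Every sample is labelled as 6 weeks old, and the controls were taken ahead of the treatment. No untreated group of the later times was analysed here, so drug, recovery and time cannot be told apart. The titles call the arrays biological replicates but do not say whether an array holds 1 animal, and the p-values measure the spread between these arrays.

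Collagens are triple helical proteins built from alpha chains, and each gene encodes 1 chain. Fibrillar collagens assemble into the banded fibres of connective tissue and of organ capsules, and types V and XI start and regulate such fibres. Type IV collagen forms the sheet-like network of basement membranes, on which the endothelium of the dense adrenal sinusoids and the cords of cortical cells lie. Many of the other collagens sit on fibril surfaces, form beaded filaments or microfibrils, or span cell membranes. The glycoproteins among the 54 genes bind collagens and cells, or cross-link the fibres. In the adrenal gland the capsule and the stroma are the main sites of fibrillar matrix, and cells of the capsule contribute to renewal of the cortex.

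Values are log2 levels made by robust multi-array average (RMA), so that a difference of 1 is a change of 2-fold. The highest of the 15 array medians was 1.64, and members whose mean over all arrays lay at or below it are called near the floor. This limit was chosen here and is not a measured background, and a lower level may not be readable there. In whole-gland RNA, fewer cells of a type and less RNA per cell cannot be told apart. Probe sets differ in their response, so tests compare a level only with levels of the same gene, and the ranges within a class say how far its probe sets read above the floor, not which gene is more abundant. Over genes, each array had a mean correlation with the others of its group between 0.987 and 0.991. Differences were tested with limma over all genes, with Benjamini-Hochberg adjustment over all 21439 genes and a threshold of 0.05. Each difference is given as log2 ± standard error, and each group level as mean ± SD.

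The classes differed in how many of their genes lay near the floor. Of the 54 members, 23 had a mean level above the median of all genes (2.44), and 18 lay near the floor. Above that median were 4 of 11 fibrillar collagens, 3 of 8 basement membrane collagens, 7 of 25 other collagens and 9 of 10 matrix glycoproteins. Near the floor were 4, 3, 11 and 0 of them in the same order of classes. The fibrillar genes above it were Col1a1, Col1a2, Col3a1 and Col5a1, the chains of types I and III and a chain of type V. The basement membrane genes were Col4a1, Col4a2 and Col15a1. The other collagens were Col6a1, Col6a2, Col6a3, Col6a5, Col8a1, Col12a1 and Col14a1, and among the glycoproteins Eln alone was not above it. Mean levels over all arrays ran from 0.86 (Col24a1) to 5.59 (Col3a1) among fibrillar collagens. They ran from 1.30 (Col4a4) to 5.78 (Col4a1) among basement membrane collagens, and from 0.93 (Col19a1) to 6.93 (Col6a1) among the others. Among the glycoproteins they ran from 2.02 (Eln, the elastic fibre protein elastin) to 9.71 (Bgn, the small proteoglycan biglycan).

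Few matrix genes passed the test, and few genes of the whole table did. In withdrawal against control, 2 of the 54 members were called, Col4a5 upward and Col5a3 downward, which is 3.70% of them against 4.30% of all genes (2.49% upward and 1.81% downward). In day 3 against withdrawal, 2 members were called (3.70%), Col4a5 and Postn, both downward, against 2.25% of all genes (0.886% downward). In day 7 against withdrawal, 0 members were called, against 1.88% of all genes, and 18 had an unadjusted p under 0.05. In day 3 against control (0.131% of all genes called), day 7 against control (0.0187%) and day 7 against day 3 (0%), limma called 0 members, with 4, 3 and 1 members at an unadjusted p under 0.05 (10%, 5.95% and 7.07% of all genes). In all, 3 members were called in at least 1 of the 6 comparisons and 51 in none. At an unadjusted p under 0.05, 14 members stood in withdrawal against control (25.9%, against 17.0% of all genes) and 11 in day 3 against withdrawal (20.4%, against 13.9%). For day 7 against withdrawal the share was 33.3%, against 13.5% of all genes. A miss of the threshold does not show that levels were alike: the 95% interval of a member's difference between withdrawal and control reached a median of 0.36 to either side.

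**Figure D1:**
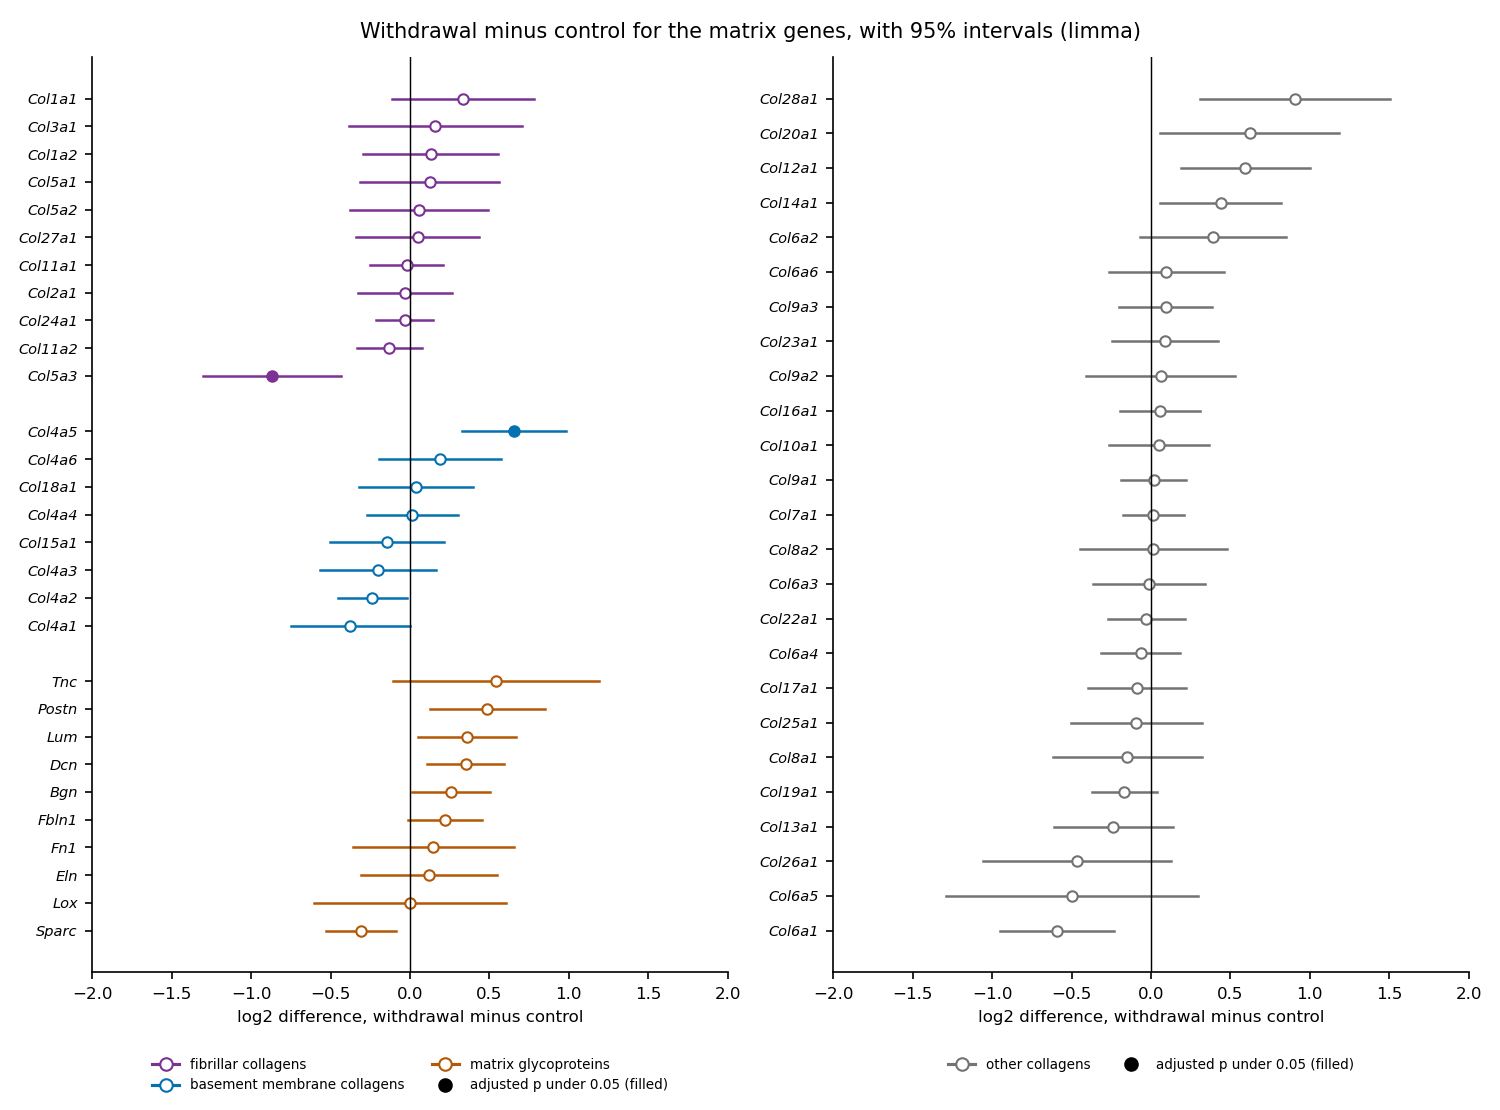
Difference of each of the 54 matrix genes between withdrawal and control (x axis, log2 units, withdrawal minus control), with genes down the page by class. Points are limma estimates, lines are 95% intervals and filled points passed an adjusted p of 0.05. Col5a3 (-0.87) and Col4a5 (0.65) are the filled points, and most intervals cross 0.

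Col4a5, an alpha chain of basement membrane collagen IV, was higher at withdrawal. Its level was 3.05, 2.99 and 2.28 on the 3 withdrawal arrays, against 2.11, 2.00, 2.23 and 2.13 on the 4 control arrays. On the day 3 arrays it was 2.21, 2.09, 2.17 and 2.10, and on the day 7 arrays 2.40, 2.09, 2.35 and 2.14. Withdrawal replicates 1 and 2 stood above all other arrays, while withdrawal replicate 3 lay only just above the highest control and below 2 of the day 7 arrays. Col4a5 rose by 0.65 ± 0.15 at withdrawal against control (1.57-fold, 95% interval 0.33 to 0.98, limma adjusted p = 0.025). It then fell by 0.63 ± 0.15 at day 3 against withdrawal (limma adjusted p = 0.0449), and its day 7 minus withdrawal difference of -0.53 ± 0.15 did not pass (limma adjusted p = 0.0989). Day 3 and day 7 differed from control by 0.03 ± 0.14 and 0.12 ± 0.14, with adjusted p of 0.972 and 0.953.

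The Col4a5 calls depended on single arrays. For withdrawal against control, the limma adjusted p was 0.112 without withdrawal replicate 1 and 0.126 without withdrawal replicate 2. It was 0.0545, 0.0597 and 0.0522 without control replicates 1, 2 and 4, and the call held in the other 10 of 15 fits. In a fit of only the withdrawal and control arrays it was 0.12. For day 3 against withdrawal, the call held only without withdrawal replicate 3 (adjusted p = 0.00182), and the adjusted p of the 14 other fits ran from 0.0531 to 0.196. It was 0.187 with only the 2 groups in the fit and 0.0623 with a trended, robust prior. Without withdrawal replicate 3, day 7 against withdrawal also passed, at -0.78 and an adjusted p of 0.00437.

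Col4a5 lies head to head with Col4a6 on chromosome X, and the type IV genes Col4a1 and Col4a2 are paired in the same way on chromosome 8. The annotated starts of Col4a5 and Col4a6 are 1343 bases apart, and those of Col4a1 and Col4a2 are 21 bases apart. Col4a6 lay near the floor, with 1.87, 1.48 and 1.62 at withdrawal against 1.53, 1.19, 1.42 and 1.74 in controls. Those groups overlapped, and the difference was 0.19 ± 0.18 (limma adjusted p = 0.675). The difference between the Col4a5 and Col4a6 responses was not tested, since they come from different probe sets. The bases upstream of the annotated starts of both genes are shown so that this pair, of which 1 gene was called, can be compared. They come from RefSeq (build GRCm38.p6) and cover the 250 bases before the start at chrX:141475169-141475418 on the plus strand for Col4a5 and chrX:141474077-141474326 on the minus strand for Col4a6. Capitals mark matches to CCAAT or GGGCGG on either strand.
Col4a5: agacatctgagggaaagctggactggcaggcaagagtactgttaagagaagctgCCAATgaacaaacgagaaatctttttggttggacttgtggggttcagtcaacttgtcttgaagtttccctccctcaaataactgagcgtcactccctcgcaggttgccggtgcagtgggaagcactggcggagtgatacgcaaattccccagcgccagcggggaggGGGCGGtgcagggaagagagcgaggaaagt
Col4a6: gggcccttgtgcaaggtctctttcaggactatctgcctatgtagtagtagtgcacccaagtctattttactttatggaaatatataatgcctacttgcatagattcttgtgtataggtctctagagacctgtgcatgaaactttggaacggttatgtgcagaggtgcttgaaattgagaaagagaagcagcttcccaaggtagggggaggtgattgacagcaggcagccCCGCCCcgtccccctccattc
Both windows hold 1 GGGCGG match (CCGCCC is its reverse complement), which begins 30 bases before the start of Col4a5 and 21 bases before that of Col4a6. The Col4a5 window also holds 1 CCAAT, 196 bases before the start, and neither window holds TATAAA or AGAACA.

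Col5a3, a chain of type V collagen, a fibrillar type that regulates the diameter of type I fibrils, was lower at withdrawal. Its level was 1.73, 1.54 and 1.55 on the withdrawal arrays, against 2.53, 2.23, 2.53 and 2.60 on the control arrays. All 3 withdrawal arrays lay below every control and close to the floor, where part of a fall may not be read. The day 3 arrays stood between the groups at 1.90, 2.12, 1.97 and 1.95. The day 7 arrays were spread over the whole range, at 2.34, 2.80, 1.96 and 1.60. Col5a3 fell by 0.87 ± 0.20 at withdrawal against control (1.83-fold, 95% interval -1.30 to -0.44, limma adjusted p = 0.0251). Its differences from withdrawal were 0.38 ± 0.20 at day 3 (adjusted p = 0.439) and 0.57 ± 0.20 at day 7 (adjusted p = 0.198), and neither passed. The call ended when any of 6 arrays was left out, with limma adjusted p of 0.0523, 0.0968 and 0.0756 without withdrawal replicates 1, 2 and 3, and 0.0591, 0.0583 and 0.0646 without control replicates 1, 3 and 4. The size of the difference stayed between -0.95 and -0.83 in all 15 such fits.

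The other chains of type V did not pass. Col5a1 was 2.87, 3.48 and 3.48 at withdrawal against 3.18, 2.60, 3.45 and 3.39 in controls, which overlap. Col5a2, the neighbour of Col3a1 on chromosome 1, differed by 0.05 ± 0.20 between withdrawal and control (limma adjusted p = 0.934), with a withdrawal array at 2.60 above every other array and the remaining pair at 1.87 and 1.54. The bases upstream of Col5a3 (chr9:20815068-20815317, minus strand) and of Postn (chr3:54360857-54361106, plus strand, the last of 2 annotated starts) complete the called genes, with the matches to the same motifs and to TATAAA in capitals.
Col5a3: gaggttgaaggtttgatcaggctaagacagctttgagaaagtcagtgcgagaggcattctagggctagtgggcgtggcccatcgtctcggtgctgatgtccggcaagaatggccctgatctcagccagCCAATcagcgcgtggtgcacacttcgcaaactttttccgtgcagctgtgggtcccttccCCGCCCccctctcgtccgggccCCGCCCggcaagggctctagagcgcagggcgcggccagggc
Postn: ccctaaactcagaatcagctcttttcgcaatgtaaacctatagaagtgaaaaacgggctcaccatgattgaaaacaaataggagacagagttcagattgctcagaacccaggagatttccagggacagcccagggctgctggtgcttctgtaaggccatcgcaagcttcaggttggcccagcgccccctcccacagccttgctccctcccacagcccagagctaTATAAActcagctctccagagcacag
The Postn window holds a TATAAA, the TATA box sequence, that begins 26 bases before the start, and no GGGCGG or CCAAT. The Col5a3 window has no TATAAA, 1 CCAAT at 122 bases and 2 GGGCGG matches at 63 and 41 bases before the start. Their G and C contents are 62.8% (Col5a3) and 52.0% (Postn), beside 54.0% for Col4a5 and 47.6% for Col4a6.

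Promoter windows were matched for 40 of the 54 members (46 windows). TATAAA was present in 17.4% of them, against 12.4% of the 32851 windows of all genes. GGGCGG, the core of the GC box, was present in 56.5% against 32.7%, and CCAAT in 28.3% against 33.8%. AGAACA, the repeated unit of the glucocorticoid response element, was present in 10.9% against 16.1%. All 4 motifs were searched on both strands in 250 bases, and these shares describe letters, not bound sites. By class, the 8 basement membrane windows came from 7 of 8 genes and the 8 glycoprotein windows from 5 of 10 genes, so some genes count more than once. In the order fibrillar, basement membrane, other collagens and glycoproteins there were 8, 8, 22 and 8 windows. TATAAA was in 2, 0, 3 and 3 of them, and CCAAT in 3, 4, 6 and 0. GGGCGG was in 6, 4, 12 and 4, and AGAACA in 0, 0, 2 and 3. Differences between the classes in these counts were not tested.

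Postn encodes periostin, a secreted matrix protein of collagen-rich tissue. It was the glycoprotein that was called. Its level was 8.45, 8.21 and 8.57 on the withdrawal arrays and 7.48, 7.24, 7.83 and 7.82 on the day 3 arrays, with no overlap. The control arrays read 7.80, 8.27, 7.94 and 7.69, and the day 7 arrays 7.51, 7.89, 7.68 and 7.91. Control replicate 2 overlapped the withdrawal arrays, and the other 3 controls lay below them. Postn fell by 0.82 ± 0.17 at day 3 against withdrawal (1.76-fold, 95% interval -1.18 to -0.46, limma adjusted p = 0.0203). Its day 7 minus withdrawal difference was -0.66 ± 0.17 (limma adjusted p = 0.0616) and its withdrawal minus control difference 0.49 ± 0.17 (adjusted p = 0.137). The day 3 call ended without withdrawal replicate 1 (adjusted p = 0.069), without withdrawal replicate 3 (0.0813) and without day 3 replicate 1 (0.0541), and held in 12 of 15 such fits. With only the 2 groups in the fit the adjusted p was 0.0801. The day 7 difference passed when control replicate 2 (adjusted p = 0.045) or day 3 replicate 2 (0.0429) was left out.

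**Figure D2:**
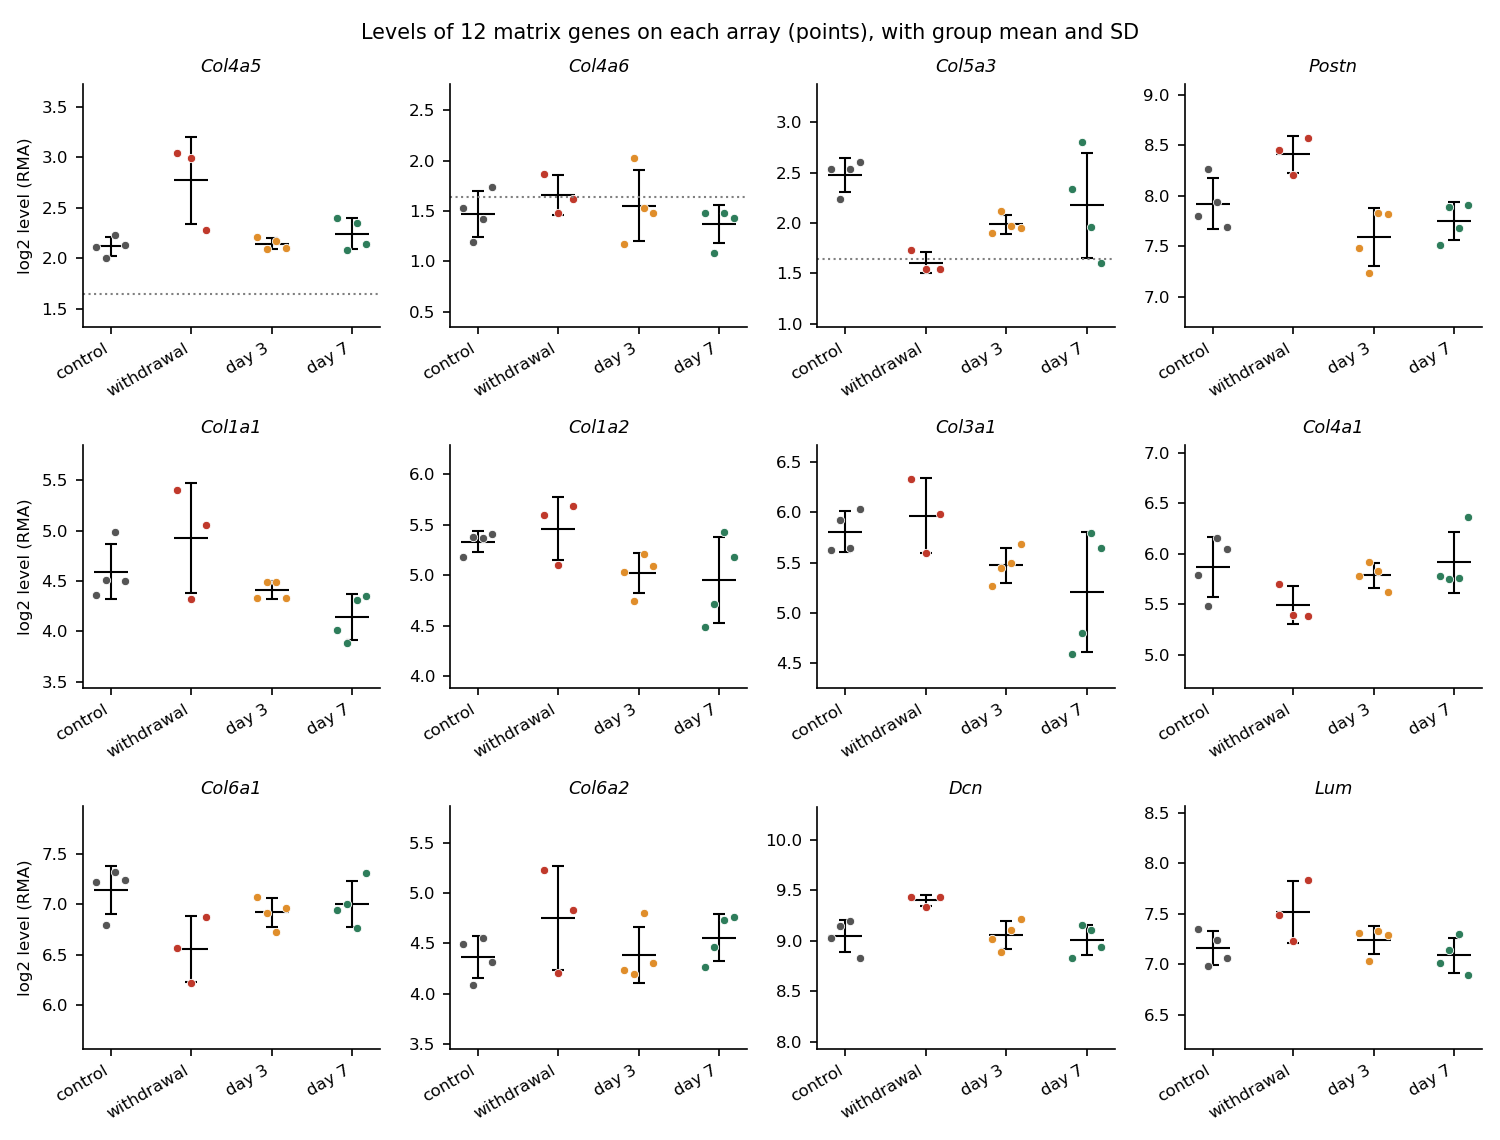
Levels of 12 matrix genes on each of the 15 arrays (y axis, log2 RMA level; x axis, group). Points are arrays, bars are the group mean and SD, and the dotted line, where it falls in the panel, is the highest array median of 1.64. The withdrawal arrays stand apart from the controls in Col4a5, Col5a3 and Dcn, and from day 3 in Postn, and the 3 type I and III chains overlap between withdrawal and control.

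The main interstitial fibrillar chains did not pass in any comparison. Col1a1, the alpha 1 chain of type I collagen, was 5.40, 4.33 and 5.05 at withdrawal, against 4.36, 4.51, 4.99 and 4.51 in controls. At day 3 it was 4.33, 4.49, 4.49 and 4.33, and at day 7 it was 4.02, 3.89, 4.32 and 4.35. A pair of withdrawal arrays stood above all others, and withdrawal replicate 2 sat with the day 3 and day 7 arrays. The difference was 0.33 ± 0.21 between withdrawal and control (limma adjusted p = 0.463) and -0.78 ± 0.21 between day 7 and withdrawal (adjusted p = 0.0766). Without withdrawal replicate 2, the Col1a1 difference reached -1.08 at day 7 (adjusted p = 0.0121) and -0.82 at day 3 (adjusted p = 0.0461).

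Col1a2, the partner chain of type I, and Col3a1, the chain of type III, gave similar values. Col1a2 averaged 5.46 ± 0.32 at withdrawal and 5.33 ± 0.10 in controls (SD, n = 3 and 4), a difference of 0.13 ± 0.20 (limma adjusted p = 0.818). Col3a1 read 6.33, 5.59 and 5.98 at withdrawal, against 5.63, 5.92, 5.65 and 6.03 in controls. At day 7, Col3a1 split into a low pair (4.60 and 4.80) and a high pair (5.79 and 5.65), and Col1a2 did the same (4.49 and 4.71, against 5.42 and 5.18). The low pair was day 7 replicates 1 and 2 for both genes. The day 7 minus withdrawal differences were -0.51 ± 0.20 for Col1a2 (limma adjusted p = 0.248) and -0.76 ± 0.26 for Col3a1 (adjusted p = 0.171). Against control, the day 7 means were lower by 0.45 (Col1a1), 0.38 (Col1a2) and 0.60 (Col3a1) log2 units, with adjusted p of 0.811, 0.83 and 0.787. In that comparison 9 of the 11 fibrillar genes, of which 4 lay near the floor, had a lower mean at day 7, against 10388 of all 21439 genes. Of the 11, 2 had a limma unadjusted p under 0.05, beside 5.95% of all genes. The class median was -0.11, and -0.42 over the 4 fibrillar genes above the median of all genes.

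The basement membrane chains Col4a1 and Col4a2, both well above the floor, had lower means at withdrawal, opposite in sign to Col4a5. Col4a1, which with Col4a2 forms the common type IV trimer, was 5.71, 5.39 and 5.38 at withdrawal, against 5.79, 5.48, 6.16 and 6.05 in controls. At day 3 it was 5.78, 5.92, 5.83 and 5.62, and at day 7 it was 5.78, 5.75, 5.76 and 6.37. Only the lowest control overlapped the withdrawal arrays, and all day 7 arrays lay above them. The Col4a1 difference was -0.38 ± 0.18 for withdrawal minus control (limma adjusted p = 0.289) and 0.42 ± 0.18 for day 7 minus withdrawal (adjusted p = 0.289). Col4a2 was 4.46, 4.34 and 4.37 at withdrawal, below every control (4.74, 4.51, 4.51 and 4.76), with a difference of -0.24 ± 0.10 (limma adjusted p = 0.241). At day 3, Col4a2 was 4.30, 4.52, 4.37 and 4.48, which overlaps withdrawal.

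Col15a1, a collagen of the zone between basement membrane and fibrils, averaged 3.61 ± 0.17 at withdrawal and 3.76 ± 0.22 in controls (SD, n = 3 and 4), and 3.80 ± 0.34 and 3.86 ± 0.12 at day 3 and day 7. Col18a1, whose fragment endostatin inhibits vessel growth, averaged 1.96 ± 0.17 at withdrawal and 1.93 ± 0.20 in controls. None of these differences passed, nor did those of Col4a3 (-0.20 ± 0.17) and Col4a4 (0.01 ± 0.13), which encode partner chains from neighbouring genes on chromosome 1 and lay near the floor.

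Among the other collagens, 0 of 25 were called in any comparison. Chains of type VI, which form beaded microfilaments around cells, had differences of opposite sign. Col6a1 was 6.57, 6.22 and 6.88 at withdrawal, against 7.22, 6.80, 7.32 and 7.24 in controls, a difference of -0.59 ± 0.17 (limma adjusted p = 0.0642). Withdrawal replicate 3 and control replicate 2 overlapped, and leaving out either brought the adjusted p to 0.0316 and 0.0293. The Col6a1 difference also passed with each array centred on its median (-0.70, adjusted p = 0.0279). Col6a2, its neighbour on chromosome 10, was 5.23, 4.21 and 4.83 at withdrawal, against 4.49, 4.09, 4.56 and 4.32 in controls, a difference of 0.39 ± 0.22 (limma adjusted p = 0.387). Col6a3 differed by -0.01 ± 0.17 between withdrawal and control and by -0.36 ± 0.17 between day 3 and withdrawal (adjusted p = 0.985 and 0.352).

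Col6a4, Col6a5 and Col6a6 are neighbours on chromosome 9. Col6a5 averaged 3.18 ± 0.61 at withdrawal and 3.68 ± 0.17 in controls, and 3.44 ± 0.82 and 4.08 ± 0.42 at day 3 and day 7. The 4 day 3 arrays of Col6a5 ran from 2.55 to 4.24, the widest spread of the type VI chains. Col6a4 and Col6a6 had means of 0.97 and 1.70 over all arrays, and their withdrawal minus control differences were -0.06 ± 0.12 and 0.10 ± 0.17.

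Col12a1 and Col14a1, collagens that decorate the surface of type I fibrils, had higher means at withdrawal. Col12a1 was 5.39, 5.06 and 5.74 at withdrawal, against 4.74, 4.99, 5.06 and 4.42 in controls. At day 3 it was 4.44, 4.75, 4.97 and 4.94, below every withdrawal array, and at day 7 it was 4.86, 4.99, 5.02 and 5.34. Its differences were 0.59 ± 0.19 for withdrawal minus control (limma adjusted p = 0.0982) and -0.62 ± 0.19 for day 3 minus withdrawal (adjusted p = 0.119). Col14a1 was 4.36, 3.72 and 4.10 at withdrawal, above every control (3.62, 3.70, 3.55 and 3.61), with a difference of 0.44 ± 0.18 (adjusted p = 0.213).

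Col28a1, a collagen of the other class, had withdrawal arrays above every control. It was 3.36, 2.25 and 2.68 at withdrawal, against 1.86, 1.78, 1.69 and 2.11 in controls, which do not overlap. At day 3 it was 2.43, 2.79, 1.88 and 2.92, and at day 7 it was 1.45, 2.11, 1.19 and 1.83, below every withdrawal array. The differences were 0.91 ± 0.28 for withdrawal minus control (limma adjusted p = 0.0876) and -1.12 ± 0.28 for day 7 minus withdrawal (adjusted p = 0.0563), so neither passed. The day 7 mean lies at the floor (1.64), with 2 of 4 arrays below it, so part of that difference may not be read. It passed without withdrawal replicate 2 (adjusted p = 0.0442), day 3 replicate 3 (0.0373) or day 7 replicate 2 (0.0489). Col28a1 is expressed in peripheral nerve, and the 5 Schwann and glial markers measured had a mean level of 2.92 to 3.42 on the withdrawal arrays, against 2.46 to 2.83 on the control arrays. They ran from 2.94 to 3.29 at day 3 and from 2.61 to 2.94 at day 7, with Sox10 near the floor, and their part in the Col28a1 values was not tested. Col20a1 differed by 0.62 ± 0.26 between withdrawal and control (adjusted p = 0.24), with withdrawal replicate 1 at 3.09 above all other arrays. Col26a1 had 1 high array, control replicate 4 at 3.15, where the other 14 arrays lay between 1.35 and 1.86.

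Of the 10 matrix glycoproteins, 8 had a higher mean at withdrawal than in controls, and the class median of 0.24 compares with -0.01 over all genes. At day 7, 9 of the 10 had a lower mean than at withdrawal, with a median of -0.31, against 0.00 over all genes. These 2 comparisons share the withdrawal arrays, so the second is no independent sign of the first. Dcn (decorin, a small leucine-rich proteoglycan that binds collagen fibrils) was 9.43, 9.33 and 9.43 at withdrawal, above every array of the other groups. Its controls read 9.03, 9.14, 9.19 and 8.83, its day 3 arrays 9.02, 8.89, 9.10 and 9.21, and its day 7 arrays 8.83, 9.16, 9.10 and 8.94. The difference was 0.35 ± 0.11 for withdrawal minus control, and -0.34 ± 0.11 and -0.39 ± 0.11 for day 3 and day 7 minus withdrawal. Their limma adjusted p were 0.106, 0.157 and 0.104. With a trended, robust prior the first and the last passed (limma adjusted p = 0.0449 and 0.0399). Lum (lumican), which lies next to Dcn on chromosome 10 and encodes another such proteoglycan, was 7.49, 7.23 and 7.83 at withdrawal, against 7.35, 6.98, 7.24 and 7.06 in controls. Its difference was 0.36 ± 0.15 (limma adjusted p = 0.212), and the groups overlapped.

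Bgn (biglycan) ran from 9.83 to 10.04 at withdrawal, above every control (9.79, 9.58, 9.62 and 9.82). Its difference of 0.26 ± 0.11 did not pass (limma adjusted p = 0.268). Sparc, a collagen-binding matricellular protein that is abundant in endothelium, was the 1 glycoprotein whose withdrawal arrays all lay below the controls. It read 9.17, 8.87 and 9.23 at withdrawal, against 9.40, 9.35, 9.53 and 9.32 in controls and 9.48, 9.28, 9.39 and 9.32 at day 3. The differences were -0.31 ± 0.10 for withdrawal minus control (limma adjusted p = 0.115) and 0.27 ± 0.10 for day 3 minus withdrawal (adjusted p = 0.22). The first of these passed with each array centred on its median (-0.42, limma adjusted p = 0.0279) and with a trended, robust prior (0.0407).

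Fibronectin, elastin and the rest differed less or varied more. Fn1 (fibronectin, which guides the assembly of collagen fibrils) was 6.08, 5.18 and 5.51 at withdrawal, against 5.35, 5.79, 5.33 and 5.33 in controls, a difference of 0.15 ± 0.24. Tnc (tenascin C, a glycoprotein of remodelling tissue) averaged 2.76 ± 0.33 at withdrawal and 2.22 ± 0.25 in controls, a difference of 0.54 ± 0.30 (limma adjusted p = 0.4). Fbln1 (fibulin 1, of basement membranes and elastic fibres) differed by 0.22 ± 0.11 (adjusted p = 0.328). Eln differed by 0.12 ± 0.20 (adjusted p = 0.832). Lox (lysyl oxidase, which cross-links collagen and elastin) averaged 3.04 ± 0.28 at withdrawal and 3.04 ± 0.45 in controls, with a 95% interval for the difference of -0.61 to 0.60.

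**Figure D3:**
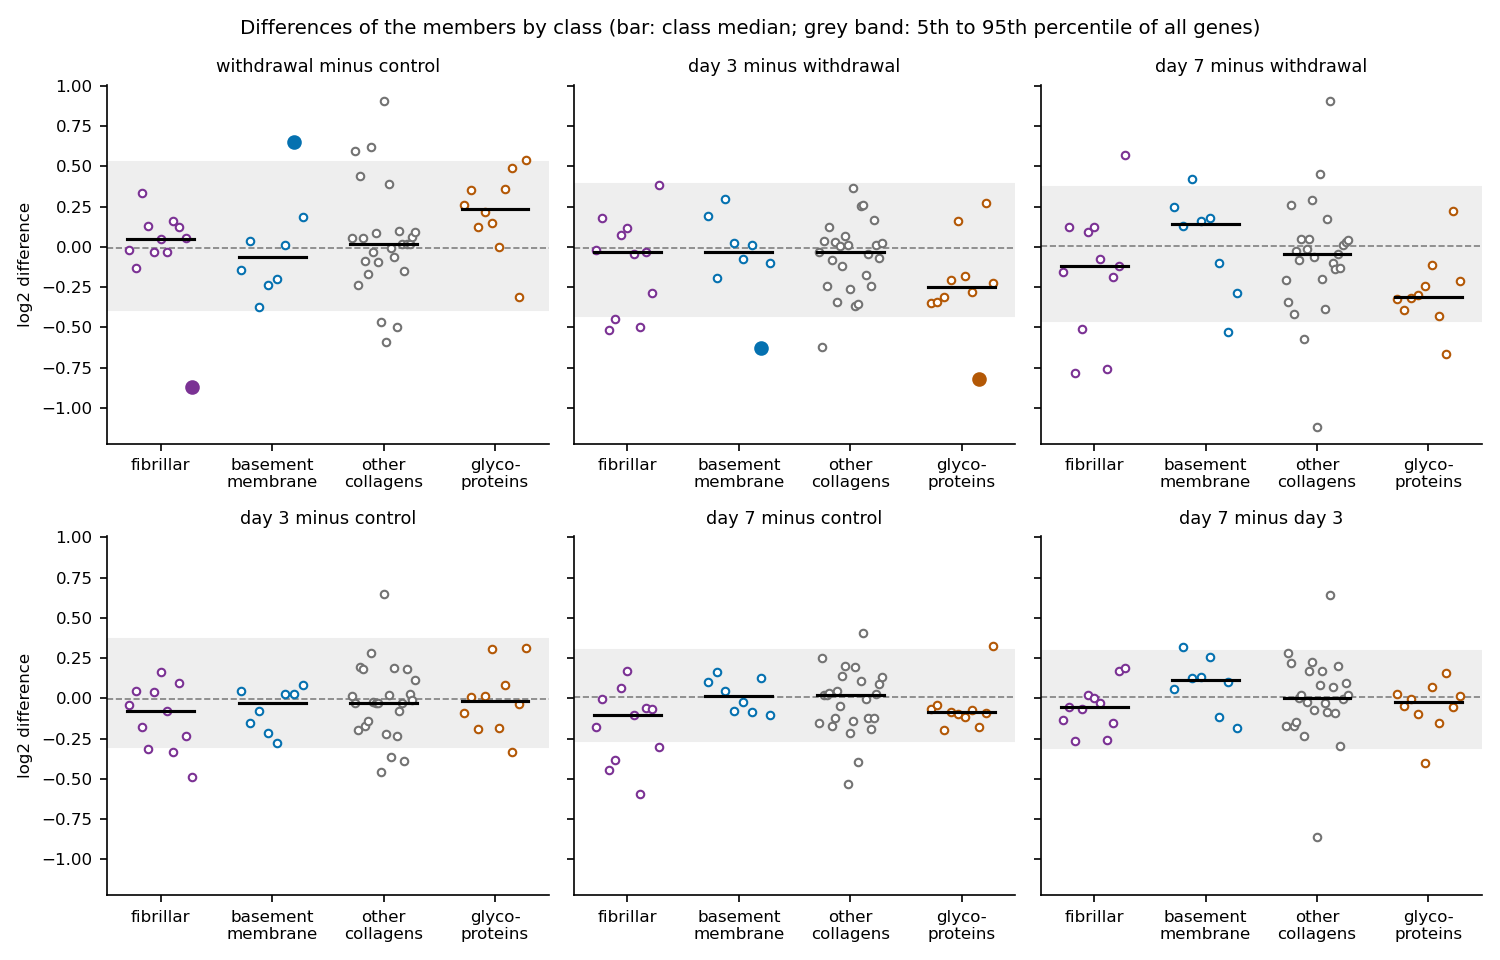
Log2 differences of all 54 members in the 6 comparisons (y axis), by class (x axis). Open points are members, filled points passed an adjusted p of 0.05, bars are class medians, the dashed line is the median of all genes and the grey band runs from their 5th to 95th percentile. The glycoprotein bar is at 0.24 for withdrawal minus control and at -0.25 and -0.31 for day 3 and day 7 minus withdrawal.

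Set side by side, the classes had these medians over all their members, many of them near the floor. For withdrawal minus control they were 0.05 for fibrillar, -0.07 for basement membrane and 0.01 for other collagens. For day 3 minus withdrawal all 3 collagen classes had a median of -0.03, and the glycoproteins -0.25. For day 7 minus withdrawal they were -0.12, 0.14 and -0.04, with the glycoproteins at -0.31. For day 7 minus control they were -0.11, 0.01 and 0.02, with the glycoproteins at -0.09, where the median of all genes was 0.01. Over the members above the median of all genes (4 fibrillar, 3 basement membrane, 7 other and 9 glycoproteins) the classes differed more. For withdrawal minus control these medians were 0.14, -0.24, -0.01 and 0.26. For day 3 minus withdrawal they were -0.47 (fibrillar), 0.19 (basement membrane, a change of sign), -0.24 (other) and -0.23 (glycoproteins). For day 7 minus withdrawal they were -0.63, 0.25, -0.20 and -0.30 in the same order of classes, so that the fibrillar median was then the lowest. Centring each array on its median moved all genes by -0.11 in withdrawal minus control. The class medians of that comparison then became -0.06 (fibrillar, a change of sign), -0.18 (basement membrane), -0.10 (other, a change of sign) and 0.13 (glycoproteins). Under that scaling the 3 collagen medians for day 3 minus withdrawal also changed sign, to 0.014, 0.012 and 0.0087, and that of the other collagens for day 7 minus withdrawal became 0.032. The glycoprotein medians were -0.21 and -0.24 in these comparisons. Members whose groups did not overlap numbered 9 for withdrawal against control (16.7%, against 15.1% of all genes), 8 for day 3 against withdrawal (14.8%, against 12.1%) and 6 for day 7 against withdrawal (11.1%, against 12.3%). The corresponding counts were 1, 1 and 0 for day 3 against control (5.20% of all genes), day 7 against control (3.15%) and day 7 against day 3 (3.56%).

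Matrix genes also varied together within groups. Among the 23 members above the median of all genes, withdrawal replicate 2 had the lowest level of the 3 withdrawal arrays for 18 members (78.3%), against 33.0% of the 10719 genes above that median. In the day 3 group, replicate 2 was the lowest of 4 for 14 of the 23 members (60.9%), against 26.7% of those genes. Replicate 2 was also the array most often lowest at day 7 (10 of 23, 43.5%, against 24.6%) and in controls (9 of 23, 39.1%, against 28.3%). This pattern was noticed in the data and is given as a description. On withdrawal replicates 1 to 3 the macrophage marker mean was 6.92, 7.12 and 6.61, and the medulla marker mean 9.12, 9.20 and 9.16, both highest on replicate 2. On day 3 replicates 1 to 4 they were 5.90, 6.58, 5.92 and 6.24 for macrophage and 9.03, 9.39, 8.83 and 9.12 for medulla markers, again highest on replicate 2. In the other groups the order was reversed. Both means were lowest on replicate 2 in controls (4.75 for macrophage and 8.56 for medulla markers) and at day 7 (5.22 and 8.55). The endothelial mean was 5.79, 5.66 and 5.69 on the withdrawal arrays and the Schwann and glial mean 3.42, 2.92 and 3.28, both lowest on replicate 2. Both were lowest on replicate 2 at day 7 (6.18 and 2.61), but on replicate 4 in controls (6.05 and 2.46). At day 3 the endothelial mean was lowest on replicate 2 (6.24) and the Schwann and glial mean on replicate 1 (2.94). The capsule mean was lowest on control replicate 2 (4.01), withdrawal replicate 3 (4.60) and day 3 replicate 1 (3.98), and highest on day 7 replicate 2 (4.38). The fibroblast mean was 5.85, 5.78 and 5.65 on the withdrawal arrays and 5.64, 5.61, 5.60 and 5.84 on the day 3 arrays. The part of these markers in the pattern was not tested.

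Genes that make, cross-link, bind or degrade the matrix were counted in the same way, beside 4.30% of all genes called in withdrawal against control and 17.0% at an unadjusted p under 0.05. Of 23 collagen processing enzymes measured, 1 was called in withdrawal against control: Plod2, a lysyl hydroxylase, fell by 0.62 ± 0.14 (limma adjusted p = 0.0209), and 6 had an unadjusted p under 0.05. Of 15 further basement membrane proteins, Lama2, a laminin chain, rose by 0.59 ± 0.13 (adjusted p = 0.02), and 3 had an unadjusted p under 0.05. Of 19 elastic fibre and other glycoproteins, Efemp1 rose by 0.68 ± 0.18 (adjusted p = 0.0425), and Ltbp3, which binds latent TGF-beta, fell by 0.49 ± 0.11 (adjusted p = 0.0169). In that list 9 of 19 had an unadjusted p under 0.05. Of 8 further small leucine-rich proteoglycans and 10 collagen receptors, limma called 0 in all 6 comparisons, with 2 and 3 genes at an unadjusted p under 0.05 in withdrawal against control.

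Of 25 matrix proteases and inhibitors, 3 were called in withdrawal against control (beside 4.30% of all genes), 11 had an unadjusted p under 0.05, and the list median was 0.22. Mmp12, the macrophage elastase, averaged 7.31 ± 0.39 at withdrawal and 3.52 ± 0.36 in controls (SD, n = 3 and 4), a rise of 3.79 ± 0.39 (limma adjusted p = 9.18e-05). It was 6.87 ± 0.42 at day 3 and 6.08 ± 0.92 at day 7, and both were called against control (adjusted p = 0.00307 and 0.0362). The higher Mmp12 values lie on the same arrays as higher macrophage markers, of which 8 of 9 were called higher at withdrawal, and their part in it was not tested. Mmp14, a membrane-bound collagenase, rose by 0.42 ± 0.11 (adjusted p = 0.04). Mmp19 fell by 0.82 ± 0.14 at withdrawal (adjusted p = 0.00323) and rose at day 3 and day 7 against withdrawal, by 0.55 ± 0.14 and 0.75 ± 0.14 (adjusted p = 0.0467 and 0.0107).

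In the TGF-beta pathway, a main inducer of collagen genes, 2 of 14 genes were called in withdrawal against control, beside 4.30% of all genes. The ligand gene Tgfb2 rose by 0.62 ± 0.16 (limma adjusted p = 0.0464), and the receptor gene Tgfbr1 rose by 0.56 ± 0.14 (adjusted p = 0.0321). At day 3 against withdrawal, the ligand gene Tgfb3 fell by 0.97 ± 0.23 (adjusted p = 0.037), 1 of 14 beside 2.25% of all genes, and 0 of the 14 were called in the other 4 comparisons, where limma gave 4, 3, 0 and 1 genes at an unadjusted p under 0.05.

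Markers of several cell types also differed between these groups. Counts called in withdrawal against control stand beside 2.49% of all genes called higher and 1.81% called lower. The mean of 12 endothelial markers was 5.66 to 5.79 on the withdrawal arrays, against 6.05 to 6.28 on the control arrays, and 2 of the 12 were called lower (Aplnr by 1.35 ± 0.27 and Kdr by 0.77 ± 0.17, adjusted p = 0.00941 and 0.016). At day 3 and day 7 that mean was 6.24 to 6.31 and 6.18 to 6.35. The lower Col4a1, Col4a2 and Sparc values lie in the same arrays as lower endothelial, cortex, and smooth muscle and pericyte markers. The part of these markers in those values was not tested. The mean of 10 fibroblast markers was 5.65 to 5.85 at withdrawal, against 5.23 to 5.53 in controls, with 1 called higher (Lsp1, by 0.61 ± 0.14). Macrophage markers were also higher on these arrays, with 8 of 9 called, and their part in the Lsp1 values was not tested. The fibroblast mean was 5.60 to 5.84 at day 3, which overlaps withdrawal, with a list median of -0.07 for day 3 minus withdrawal. At day 7 it was 5.35 to 5.63.

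The mean of 8 adrenal capsule markers was 4.60 to 4.86 at withdrawal, against 4.01 to 4.51 in controls, with Nt5e called higher (1.10 ± 0.23). Gli1 and Gli2 lay near the floor, and Gli2 was called higher with a control mean of 1.30, below the floor, so that no size is given. Nt5e and Gli2 were 2 of 8 called higher, beside 2.49% of all genes. The capsule list mean was 3.98 to 4.30 at day 3 and 4.14 to 4.38 at day 7. Nt5e, Tcf21 and Gli2 were called lower at day 3 against withdrawal, 3 of 8 beside 0.886% of all genes. The higher Postn, Dcn, Bgn, Col12a1 and Col14a1 values lie in the same arrays as higher fibroblast, capsule, medulla, macrophage, and Schwann and glial markers. The part of these markers in those values was not tested. Smooth muscle and pericyte markers (11 genes) had a mean of 4.71 to 4.77 at withdrawal, against 4.82 to 4.91 in controls. Limma called 0 of them (4.30% of all genes), and 0 had an unadjusted p under 0.05 (17.0% of all genes). The cortex markers (8 genes) were clearly expressed, with means of 8.78 to 9.01 at withdrawal and 9.51 to 9.59 in controls. Of the 8, 5 were called lower, beside 1.81% of all genes. The medulla markers (7 genes) averaged 9.16 ± 0.04 at withdrawal and 8.82 ± 0.21 in controls (SD, n = 3 and 4), without overlap, and reached 9.39 at day 3 and 9.21 at day 7. Macrophage markers (9 genes) had means of 6.61 to 7.12 at withdrawal and 4.75 to 4.95 in controls. Of the 9, 8 were called higher, beside 2.49% of all genes. All 7 kidney markers measured and 4 of 7 skeletal muscle markers lay near the floor, and the adipocyte markers (6 genes) had means of 4.65 to 5.59 at withdrawal and 4.73 to 5.18 in controls.

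**Figure D4:**
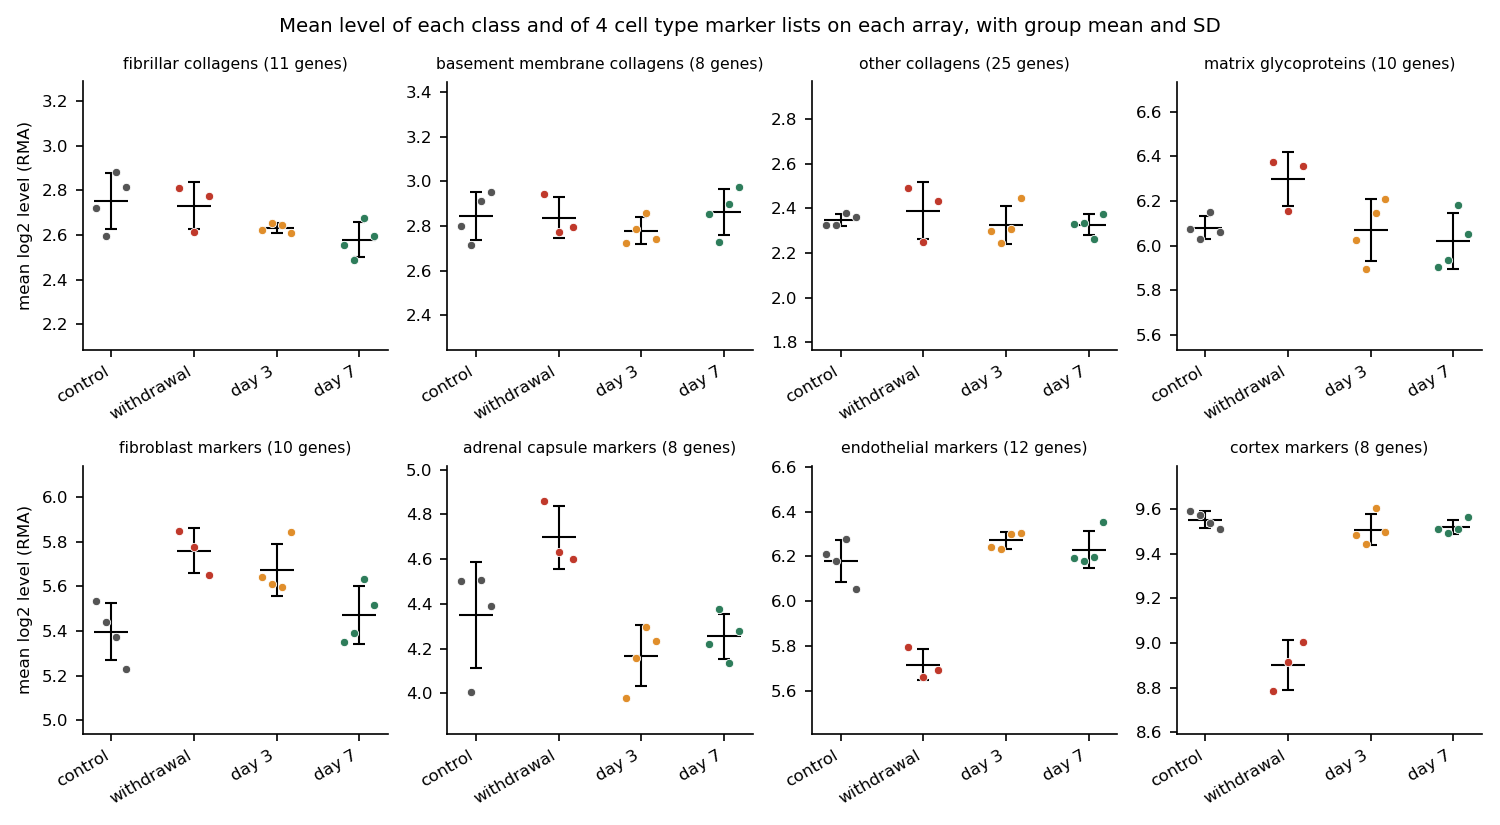
Mean log2 level (y axis) of the 4 classes and of 4 cell type marker lists on each array (points), with group mean and SD (bars), by group (x axis). The matrix glycoproteins run from 6.16 to 6.38 at withdrawal and from 6.03 to 6.15 in controls, while fibrillar collagens overlap between these groups (2.61 to 2.81, and 2.59 to 2.88). The endothelial and cortex markers are lower and the fibroblast and capsule markers higher on the withdrawal arrays than on the control arrays.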

How the data were processed

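The deposited table holds log2 values of 32736 probe sets, for which the submitters' processing notes name RMA and oligo. Versions, annotation and filters are not given in the sources. The authors deposited these log2 values already normalized. Values run from -0.19 to 12.1. Probe sets with 1 gene symbol in the platform annotation were kept (22399; 1607 carried several symbols and 8730 none). For the 807 genes with several, the probe set of the highest mean was used, which left 21439 genes. Col5a1 alone among the members had 2.

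All 15 arrays entered 1 limma model (limma 3.58.1, R 4.3.3, lmFit, then eBayes with a constant prior and no robust option) with 4 groups and 6 comparisons, and Benjamini-Hochberg adjustment ran over all genes of each comparison. The script was tested on simulated data. No batch is named in the labels, and the number of arrays limits the precision. Classes and lists are described by counts and medians, with no test.

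The members, classes and lists were chosen with earlier results of these data known. The rule named 17 set members, every called member and the highest and lowest member of each class. The following 15 were added after their values were seen: Col4a3, Col4a6, Col5a1, Col5a2, Col6a2, Col6a3, Col6a4, Col6a5, Col6a6, Col8a1, Col12a1, Col14a1, Col20a1, Col26a1 and Col28a1. From other lists, up to 4 called genes per list and comparison were named. Of the listed genes, 17 were not analysed here. Upstream bases are from RefSeq (GRCm38.p6), and members without a window there are only named.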

Additional observations from a re-analysis of the deposited data

Results flagged for a closer look

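In a group of 4 arrays, 1 array of a described gene stood far from the other 3 in 5 of 114 groups examined, where chance alone flags about 1 in 20. Col4a1 was 6.37 on day 7 replicate 4, with the other 3 arrays between 5.75 and 5.78. Col4a6 was 1.09 on day 7 replicate 2, with the others between 1.43 and 1.48. Col5a2 was 1.92 on day 7 replicate 3, with the others at 1.87. Fn1 was 5.79 on control replicate 2, with the others between 5.33 and 5.35. Lum was 7.03 on day 3 replicate 2, with the others between 7.28 and 7.33. The withdrawal group, with 3 arrays, was not examined in this way. A second probe set of Col5a1, which entered no comparison, read 2.75 on day 3 replicate 2, above the highest control array (1.35), with the 14 other arrays between 0.86 and 1.51.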

How the results depend on the processing

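Each result was recomputed under 23 other settings, of which 15 left out 1 array each. Among the 38 described members, 0 of the called differences turned in sign. The number of members called in withdrawal against control was 2, and became 4 with each array centred on its median, 5 with a trended, robust prior, and 1 with only the 2 groups in the fit or with a replicate block. Col6a1 and Sparc were gained by the centring, and Col6a1, Dcn and Sparc by the trended prior. Removing dim probe sets left 23 members, without Col4a5 and Col5a3, and the 1 then called was Col6a1 (adjusted p = 0.037). Without 1 array each it ran from 0 to 2. In day 3 against withdrawal, 2 became 1 (trended prior, and the dim filter, which removed Col4a5) and 0 (only the 2 groups, and replicate block), and 0 to 2 without 1 array each. In day 7 against withdrawal, 0 became 1 (further quantile normalization, and replicate block), 2 (dim filter) and 3 (trended prior), and 0 to 2 without 1 array each. Under those 4 settings the genes called were Col1a1, Postn, Dcn or Col28a1.

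Under the dim filter the class medians rest on fewer genes. Basement membrane collagens gave -0.24 for withdrawal minus control and 0.19 for day 3 minus withdrawal. Fibrillar collagens gave -0.47 for day 3 minus withdrawal, -0.63 for day 7 minus withdrawal and -0.42 for day 7 minus control. Other collagens gave -0.24 for day 3 minus withdrawal, -0.20 for day 7 minus withdrawal, -0.22 for day 3 minus control and 0.17 for day 7 minus day 3. Without 1 array each, other collagens ran from -0.10 to 0.038 for day 7 minus control. The remaining class medians moved by less than the spread between arrays.

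Of 21 same-numbered pairs of arrays, 0 correlated over 0.1 (range -0.138 to 0.0604). These correlations cannot show whether same-numbered arrays share a factor that acts on part of the genes, and that was not tested. Among the members above the median of all genes, replicate 2 was the array most often lowest in every group. With the replicate number as a block, the adjusted p was 0.0646 and 0.108 for Col4a5 (withdrawal against control, day 3 against withdrawal) and 0.053 for Postn, and Col28a1 passed for day 7 against withdrawal (0.0489). Over all genes, the calls in withdrawal against control were 534 higher and 387 lower, against 341 and 853 after median centring and 421 and 462 after further quantile normalization. In day 7 against withdrawal they were 210 and 194, against 391 and 134 after median centring. In day 3 against control they were 19 and 9, against 18 and 35 after centring and 12 and 11 after quantile normalization. The 921, 483 and 404 calls of the 3 comparisons with withdrawal became 524, 161 and 154 with only the 2 groups in the fit, and 544, 257 and 221 with the block. The dim filter gave 622 for day 7 against withdrawal. The 28 calls of day 3 against control became 53 (centring), 72 (dim filter), 91 (trended prior), 9 (only the 2 groups) and 4 (block), and the 4 of day 7 against control became 2, 0 and 0 under the last 3 of these. For day 7 against day 3 the dim filter gave 3 calls. The cause of these changes was not tested. Members near the floor limit what can be read, most among the other collagens (11 of 25).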

Other observations

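Outside the collagens and glycoproteins, single genes of the smooth muscle and fibroblast lists differed at day 3 against withdrawal. Cnn1, which encodes the smooth muscle protein calponin 1, averaged 3.44 ± 0.63 at day 3 and 2.36 ± 0.06 at withdrawal (SD, n = 4 and 3). It rose by 1.08 ± 0.24 (limma adjusted p = 0.0314). Cnn1 was the 1 of 11 smooth muscle and pericyte markers that was called, beside 2.25% of all genes in either direction. Cd34, a surface marker of fibroblasts and endothelium, rose by 0.73 ± 0.17 (adjusted p = 0.0378), while Lsp1 fell by 0.61 ± 0.14 (adjusted p = 0.0378). In the same comparison 5 of 9 macrophage markers were called lower, beside 0.886% of all genes, and their part in the Lsp1 values was not tested. Of the 12 endothelial markers, 4 were called higher there, beside 2.25% of all genes called in either direction. The part of the endothelial markers in the Cd34 values was not tested.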
